A study of Caenorhabditis elegans with 80 samples.

Results

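Unexposed whole Caenorhabditis elegans were compared between the start of an exposure experiment and 4 h later, using 18 of the 80 expression arrays of a study of acrylamide, cadmium and mercury. The 18 arrays are all the untreated controls at those times, 9 at 0 h and 9 at 4 h. Each of the 3 chemical series supplied 3 arrays per time, and the 9 controls at 8 h serve here only to show what followed. All groups had 0 mg/L of chemical. No strain, genotype or age in hours is given in the labels. Populations were made synchronous by bleaching gravid adults and holding the hatched worms as arrested first-stage larvae. They were then grown in CeHR, an axenic medium without bacteria, shaken at 22.5 °C until the middle of L4, the last larval stage. The 0 h control was 1 flask harvested before exposure began, and the 4 h controls stayed in culture without chemical. The labels do not say whether replicates came from separate populations, so the p values reflect how much these samples differed within groups, and part of that may be technical. Each sample was a population of whole worms read on 1 array, so no tissue was isolated.

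A nematode builds a new cuticle under the old one and sheds the old one at each moult, and collagen and matrix genes are transcribed in a set order within each cycle. The epidermis first secretes a temporary matrix called the precuticle, then collagens of successive layers, and the adult cuticle made in L4 has collagens of its own. During the same stage the hermaphrodite germ line makes sperm and then switches permanently to oocytes, while the vulva and uterus take shape. Yolk proteins, the vitellogenins, are made in the intestine of the adult hermaphrodite and taken up by oocytes.

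Values are MAS5 signals, a summary of the brightness of each set of probes against 1 transcript. Every array was centred on a common median of 202.9, and changes are differences of log2(signal + 51.8), 4 h less 0 h, which understate the change of dim genes. A gene was called at an adjusted p under 0.05. One array stood apart before centring: replicate 1 of the acrylamide series at 0 h had a 2% trimmed mean of 213.2, while the other 17 lay between 493.8 and 497.4. Of the scalings compared here, the authors' own leaves that array at its lower level. Its median signal was 80.3, against 152.7 to 199 on the other 0 h arrays and 171.3 to 217 at 4 h. Log signals correlated between 0.901 and 0.978 within groups (median 0.96). The 3′ to 5′ ratio of actin, a sign of RNA quality, did not differ detectably between the times (log2 difference of -0.03, exact permutation within series p = 0.739, n = 9 and 9).

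Markers of the labelled material were present, in some lists in full and in others in part. All 15 intestine markers were above the dim limit of 132.3 on all 18 arrays, as were 10 of 12 body wall muscle markers and 22 of 23 major sperm proteins. The counts were 8 of 9 for pharyngeal muscle, 11 of 20 for neurons, 10 of 14 for hypodermis and seam and 11 of 18 for oocyte regulators. They were 15 of 33 for other sperm genes, 13 of 17 for eggshell genes and 0 of 5 for vitellogenins. The neuron marker rgef-1 and the hypodermis and seam markers ceh-16 and rdy-2 exceeded the limit on no array. The same was true of the body wall muscle markers hlh-1 and lev-11, of try-5 among other sperm genes and of the eggshell gene perm-4. Of 12 genes specific to males, 9 exceeded the limit on no array, among them lov-1, pkd-2, clec-207 and cwp-1 to cwp-5. Of 12 genes first transcribed in embryos, 6 exceeded it on no array, including pes-10, med-1 and vet-2. The summed signal of the 5 vitellogenins was 216 to 2617 at 0 h and 806 to 7256 at 4 h. Male and embryonic transcripts were thus near or below the limit at both times, while sperm transcripts were already present at 0 h.

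Over 4 h, 4551 of 11656 genes were called (39%), of which 1635 were higher (14%) and 2916 lower (25%). Large changes ran mostly upwards: 642 genes were called and at least 2-fold higher (5.51%), and 118 were called and at least 2-fold lower (1.01%). Over probe sets rather than genes, 5831 of 15469 were called (37.7%), 795 of them at least 2-fold higher (5.14%) and 147 at least 2-fold lower (0.95%). Whole worms were read, so fewer cells of a type and less RNA per cell cannot be told apart in any of these changes. The many small decreases depended on how arrays were scaled. The median change over all probe sets tested was -0.14 after centring, 0.08 with the authors' own scaling, -0.03 with a common trimmed mean and -0.08 after quantile normalization. Of the probe sets, 2021 were called higher (13.1%) and 3810 lower (24.6%) after centring. With the authors' scaling 2490 were higher (16.1%) and 404 lower (2.61%). With the trimmed mean the counts were 2416 (15.6%) and 2306 (14.9%), and after quantile normalization 2249 (14.5%) and 3244 (21%). Of the 2916 genes called lower, 316, 1762 and 2398 stayed called under the last 3 scalings in that order.

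The count of 2-fold increases moved less, from 795 probe sets to 1039, 902 and 855 with the authors' scaling, the trimmed mean and quantile normalization, whereas the 147 decreases of that size became 42, 75 and 95. All 642 genes 2-fold higher after centring stayed called higher under the 3 other scalings. Each of those scalings had a higher median change than centring (0.08, -0.03 and -0.08 against -0.14). They could therefore hardly remove a large increase, and this is no test of the increases. Of the 118 lower genes, 114 stayed called with the authors' scaling and 118 with each of the others, though fewer of them passed 2-fold. Separation of the times is given for single genes in what follows. Over all genes tested, the 3 arrays at 4 h lay above the 3 at 0 h in each series for 571 called genes (4.9%) and below them for 324 (2.78%). All 9 arrays at 4 h lay above all 9 at 0 h for 294 (2.52%) and below them for 125 (1.07%). Genes of large change were chosen on the same arrays, so their separation is a description. A gene known only by a sequence name, without a symbol given for function or family, made up 62.5% of the 2-fold higher genes, 33.1% of the 2-fold lower genes and 37.1% of all genes tested.

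**Figure D1:**
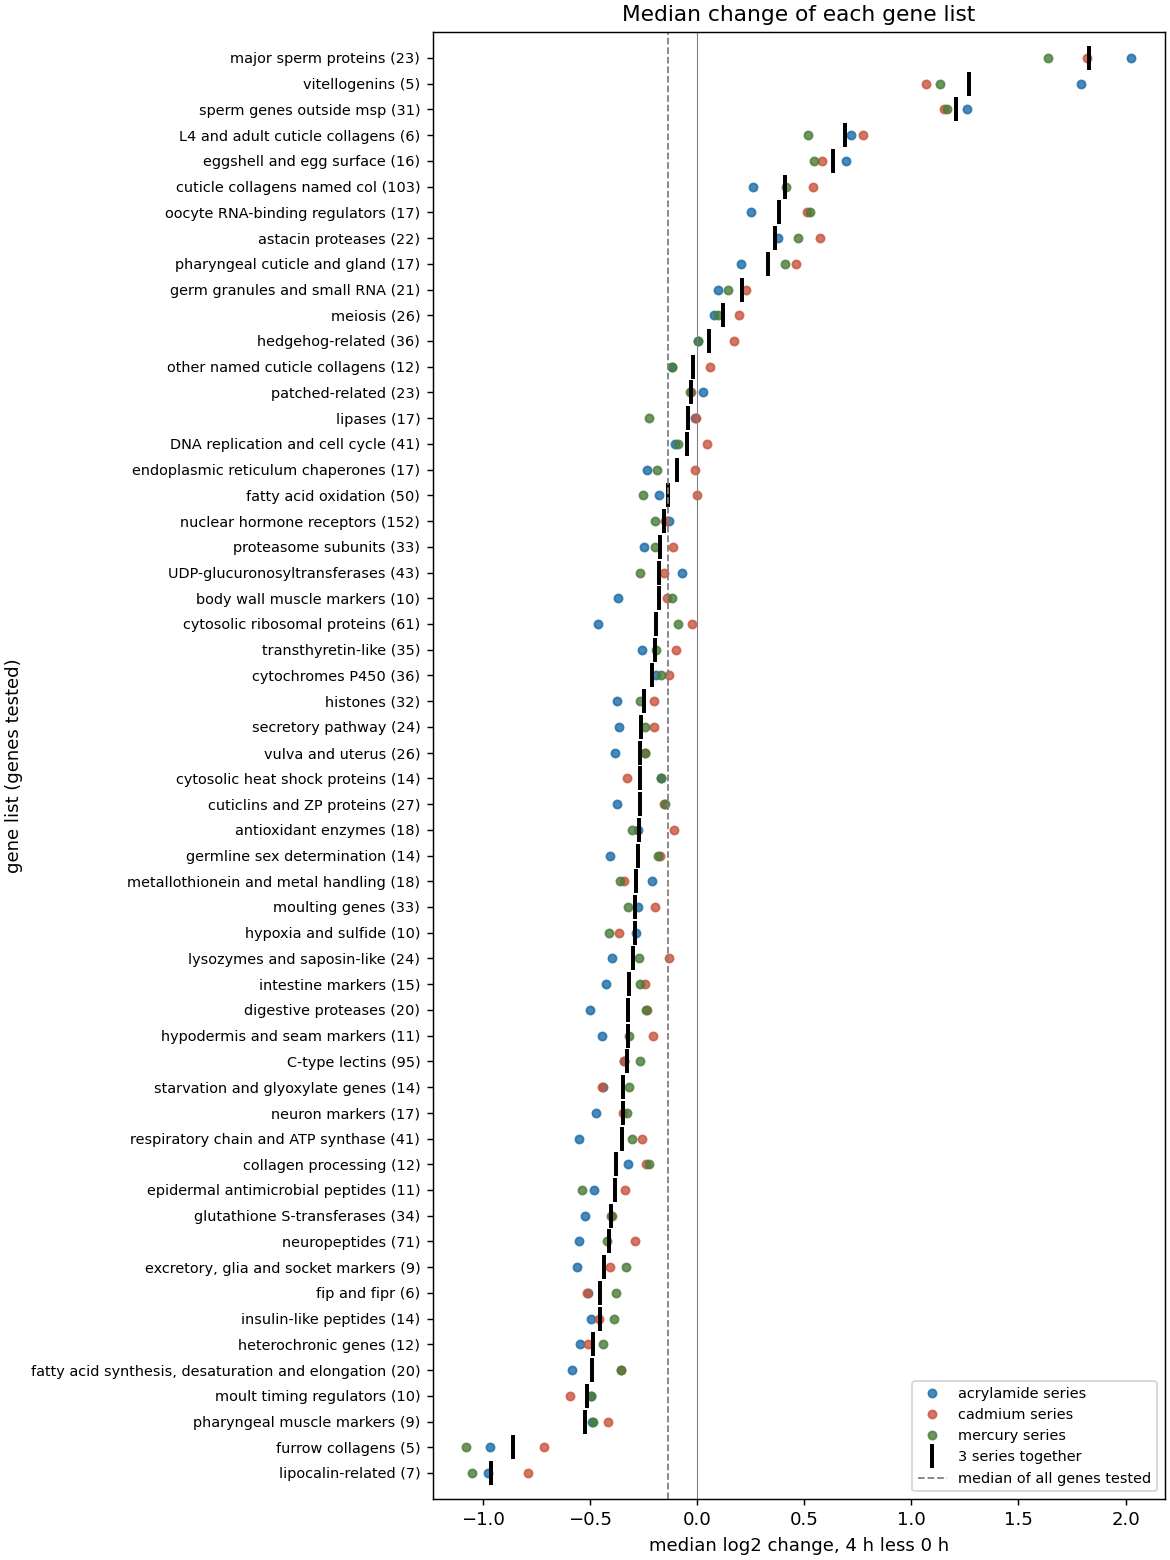
Median log2 change of each gene list, 4 h less 0 h (horizontal axis), for lists with at least 5 genes tested, the number tested in brackets. Points are the 3 series, black bars the 3 together (9 arrays per time), and the dashed line the median of all genes tested (-0.14); major sperm proteins lie at 1.83, furrow collagens at -0.86 and lipocalin-related genes at -0.96.

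Cuticle collagens made up most of the strongest increases. The median signal of col-19, a collagen of the adult cuticle, rose from 175 at 0 h (72.2 to 382) to 2059 at 4 h (426 to 4634). All 9 arrays at 4 h were above all 9 at 0 h, and the lowest 4 h value was from the acrylamide series. The change was 2.90 (SE 0.30, limma adjusted p = 2.6e-06), or 7.45-fold. Within the acrylamide series the 3 signals of col-19 were 72.2, 122 and 175 at 0 h and 426, 704 and 4634 at 4 h. Within the cadmium series they were 111, 112 and 290, then 1269, 1745 and 2059. Within the mercury series they were 218, 294 and 382, then 2228, 2301 and 2724, so no series overlapped between times and the acrylamide arrays at 4 h spread the most.

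Other collagens of the col family rose as well. The signal of col-88 ran from 45.1 to 3379 at 0 h (median 605) and from 4043 to 15680 at 4 h (median 8901), a change of 3.48 (SE 0.55). Replicates 1 and 2 of the mercury series, replicate 1 of the acrylamide series and replicate 2 of the cadmium series were the brightest at 0 h, and on the log scale the 0 h arrays spread more widely than the 4 h arrays. For col-139 the range was 290 to 1726 at 0 h and 2708 to 14380 at 4 h, a change of 3.26 (SE 0.32). Neither gene overlapped between the times, and the same held for col-122 (3.37), col-129 (3.15), col-81 (3.09), col-140 (2.80) and col-106 (2.78). The probe sets of col-139, col-129, col-81, col-140 and col-106 may also bind related collagens.

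Over the family, 103 of 128 col genes on the array passed the filter on dim signals. Of these, 43 were higher and 14 lower, 26 and 6 of them by at least 2-fold, and their median change was 0.41 against -0.14 over all genes tested. In 24 the 4 h arrays were above the 0 h arrays in every series, and in 1 they were below, namely col-41 with a change of -1.83 (SE 0.28). The other 2-fold lower members, chosen after their values were seen, were col-176 (-1.80), col-103 (-1.66), col-98 (-1.66), col-90 (-1.04) and col-128 (-1.02). Of 6 collagens listed as belonging to the L4 and adult cuticles, 4 were higher. Besides col-19 these were col-49 (1.05), col-63 (0.92) and col-38 (0.46), which had 0 h signals of at least 2238, 3268 and 6351, far above those of col-19. The call for col-38 was lost without replicate 2 of the acrylamide series at 0 h.

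Among enzymes that cut and modify cuticle proteins, more astacin proteases rose than fell, while a separate list of collagen processing genes had more decreases. Of 22 astacin metalloproteases tested, 10 were higher and 3 lower, with a median of 0.36. The signal of nas-27 was 166 to 707 at 0 h (median 282) and 920 to 3110 at 4 h (median 1810). The 2 times did not overlap, and the change was 2.16 (SE 0.24, limma adjusted p = 4.3e-06). Similarly separated were nas-22 (1.71), nas-7 (1.63) and nas-20 (1.58). The 0 h signals of nas-22 (at most 103) and nas-20 (at most 67.2) were all under the dim limit, so both passed the filter only through their 4 h arrays. Of 12 collagen processing genes, 2 were higher and 5 lower (median -0.38), against 2 higher and 0 lower with the authors' scaling. The trimmed mean left 3 lower and quantile normalization 5. The convertase gene bli-4, which processes procollagens, rose by 0.56, and phy-3, a collagen prolyl hydroxylase gene whose 0 h signals were also all under the dim limit, by 0.64. The disulfide isomerase gene pdi-2, a partner of collagen prolyl hydroxylases, fell by 0.90, and dpy-31, an astacin that cuts procollagens, fell by 0.46. The other lower members, chosen after their values were seen, were dpy-11 (-0.45), dpy-18 (-0.44) and tsp-15 (-0.43).

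The collagens that form the circumferential furrows of the cuticle went the other way. All 5 furrow collagens tested were lower, with a median of -0.86, and 4 of the 5 stayed called with the authors' scaling. The signal of dpy-7 was 3481 to 6280 at 0 h (median 4716) and 1611 to 4231 at 4 h (median 2607). The times overlapped, since the highest 4 h array, from the cadmium series, exceeded 4 of the 0 h arrays. Its change was -0.86 (SE 0.17, adjusted p = 0.00071), and dpy-3, dpy-8 and dpy-2 changed by -0.99, -0.92 and -0.86. The call for dpy-7 was lost when all 80 arrays shared 1 estimate of the spread. Of 12 other named cuticle collagens, 0 were called (median -0.02), while 1 was called higher with the authors' scaling and 3 after quantile normalization. Among them bli-1, which makes the struts between adult cuticle layers, had a change of -0.20 (SE 0.17, adjusted p = 0.38).

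**Figure D2:**
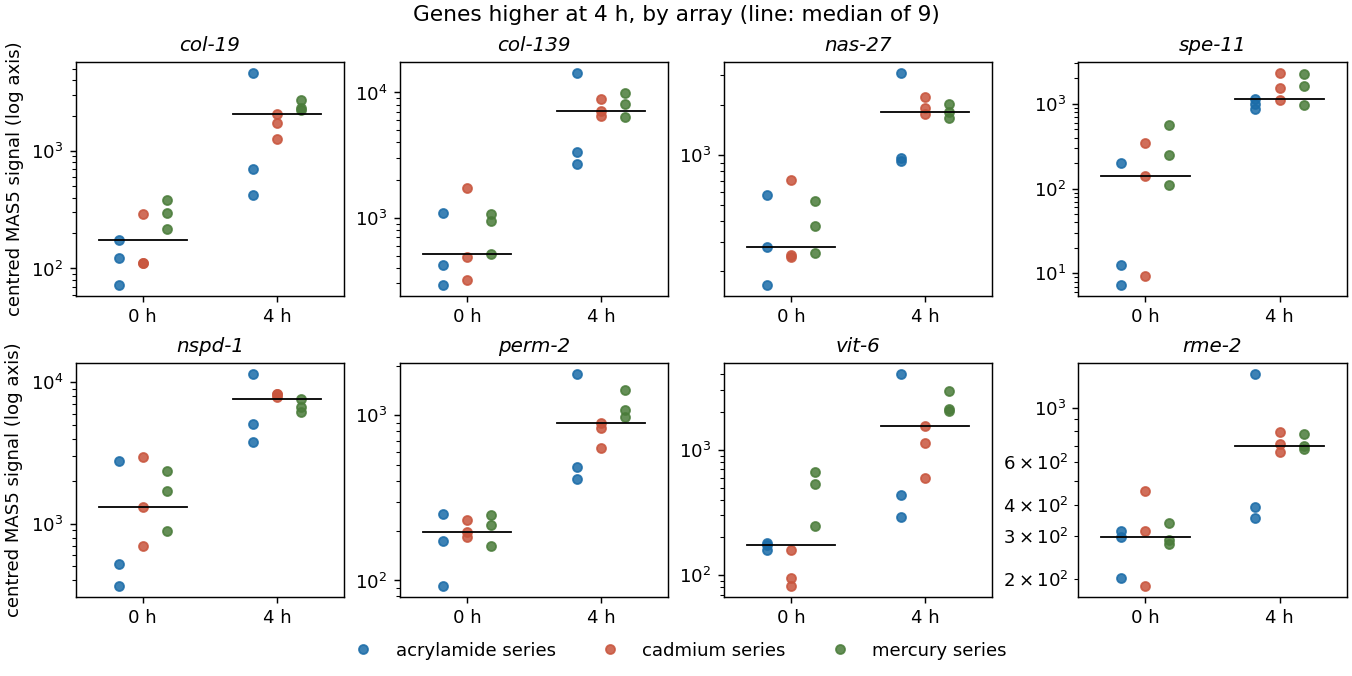
Centred MAS5 signal on a log axis for 8 genes at 0 h and 4 h, 1 point per array coloured by series, with a line at the median of 9 arrays. The 2 times do not overlap for col-19, col-139, nas-27, spe-11, nspd-1 and perm-2, whereas for vit-6 and rme-2 the lowest 4 h arrays, including 2 of the acrylamide series, fall within the 0 h range.

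Several genes of the precuticle and of moulting were lower at 4 h. Of 33 moulting genes tested, 12 were lower and 5 higher (median -0.29), where 25% of all genes were lower and 14% higher. With the authors' scaling 5 were lower and 6 higher, and the median was -0.04. The trimmed mean gave 10 lower and 6 higher, and quantile normalization 11 and 5. The signal of sym-1, a leucine-rich repeat protein of the apical matrix, was 2530 to 4993 at 0 h (median 3541) and 722 to 2359 at 4 h (median 1599). Every 4 h array was below every 0 h array. The change was -1.25 (SE 0.19, limma adjusted p = 6.1e-05). The same separation was seen for let-653, a zona pellucida domain protein of the precuticle, at 694 to 1344 and then 209 to 596 (-1.21, SE 0.17). It was also seen for peb-1, a DNA-binding protein needed for moulting (-1.22, SE 0.14).

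Of 7 lipocalin-related genes, whose products help organise the apical matrix, 4 were lower and 1 higher (median -0.96). These were lpr-6 (-1.29), lpr-3 (-1.14), lpr-5 (-1.03) and lpr-4 (-0.96), and each stayed called with the authors' scaling. Smaller decreases were those of fbn-1 (-0.89), mlt-11, which encodes a protease inhibitor (-0.74), and noah-1, another zona pellucida domain gene (-0.61). The calls of mlt-11 and noah-1 were lost with the authors' scaling. The moulting gene mlt-10 had a signal of 1245 to 4432 at 0 h and 2007 to 3778 at 4 h, with medians of 2800 and 2754. Its ranges overlapped almost fully, and its change of 0.09 (SE 0.16, adjusted p = 0.67) was not called.

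Regulators of the moulting cycle were mostly lower: 7 of 10 tested fell and 1 rose (median -0.51). With the authors' scaling 2 were lower and 1 higher, with the trimmed mean 6 and 1, and after quantile normalization 7 and 1. The signal of myrf-1, a membrane-anchored transcription factor that promotes larval development, was 672 to 1317 at 0 h (median 1149) and 264 to 599 at 4 h (median 484). All 9 arrays at 4 h were lower, and the change was -1.10 (SE 0.14, adjusted p = 1.5e-05). Smaller decreases were measured for the nuclear receptors nhr-25 (-0.65) and nhr-23 (-0.56), the zinc finger repressor blmp-1 (-0.63) and the period homologue lin-42 (-0.41). These last 4 lost their call with the authors' scaling. The GATA factor elt-3 of the epidermis fell by 0.79 on the log2 scale. The zinc finger gene bed-3, also needed for moulting, rose from a median of 685 (324 to 1371) to 1173 (955 to 1419), a change of 0.81 (SE 0.20, adjusted p = 0.0043). The regulator grh-1 was on the array and did not pass the filter.

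Hedgehog-related genes, which worms express largely in the epidermis, included changes in both directions. Of 36 tested, 6 were higher and 8 lower (median 0.05), shares near those of all genes (14% and 25%). With the authors' scaling 11 were higher and 3 lower. The signal of grd-10 was 1045 to 6625 at 0 h (median 4237) and 389 to 1477 at 4 h (median 860). Its 2 lowest 0 h arrays, replicate 1 of the acrylamide series and replicate 2 of the cadmium series, lay within the 4 h range. The change was -1.96 (SE 0.34, adjusted p = 0.00022), and grd-3 changed by -1.79 (SE 0.38). In contrast grl-16 rose from 1846 to 4867 (median 3460) to 5007 to 10550 (median 8127), without overlap, by 1.26 (SE 0.19), and grd-14 rose by 1.25 (SE 0.20). Of 23 patched-related genes, 5 were higher, with ptr-23 (0.74) and ptr-18 (0.67) at the top, and 6 were lower, led by ptr-10 (-0.83). The share of patched-related genes called lower lay near that of all genes. With the authors' scaling the patched-related counts were 6 higher and 0 lower, with the trimmed mean 6 and 3, and after quantile normalization 5 and 5.

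**Figure D3:**
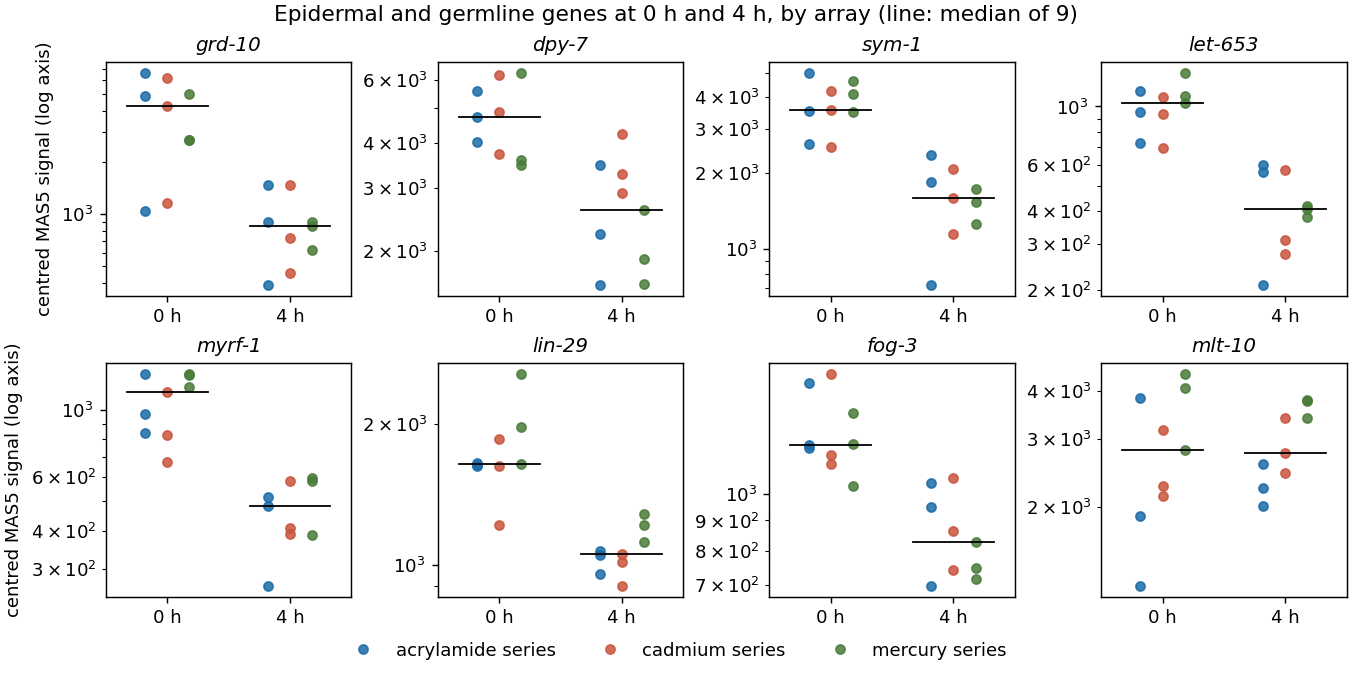
Centred MAS5 signal on a log axis for 8 genes at 0 h and 4 h, 1 point per array coloured by series, with a line at the median of 9 arrays. Every 4 h array is below every 0 h array for sym-1, let-653 and myrf-1, the ranges overlap for grd-10, dpy-7, lin-29 and fog-3, and mlt-10 keeps its median (2800 and 2754).

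The heterochronic pathway, which times the switch from larval to adult epidermis, was lower in 8 of 12 genes tested and higher in 0 (median -0.49). With the authors' scaling 1 of the 12 was lower, and 6 were with each of the other scalings. The signal of lin-29, the transcription factor that carries out the switch, was 1216 to 2563 at 0 h (median 1642) and 899 to 1286 at 4 h (median 1051). Within each series the 3 arrays at 4 h were below those at 0 h, although the pooled ranges touched. The change was -0.67 (SE 0.10, adjusted p = 6.5e-05), while col-19, a known target of lin-29, rose over the same hours. Its cofactor mab-10 changed by -0.72, the transcription factor gene hbl-1 by -0.71 and alg-1, an Argonaute that carries microRNAs, by -0.70. Of these lin-29, mab-10 and alg-1 lost their calls with the authors' scaling. The RNA-binding protein gene lin-41 changed by -0.24 (SE 0.12, adjusted p = 0.13) and was not called.

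Of 26 genes tested from a list for the vulva and uterus, read here in whole worms, 10 were lower and 1 higher (median -0.27). Over all genes 25% were lower and 14% higher. With the authors' scaling 2 of the 26 were lower and 2 higher. The trimmed mean left 6 lower and quantile normalization 9. The signal of eff-1, which fuses epidermal cells, was 725 to 998 at 0 h (median 888) and 285 to 704 at 4 h (median 510). No array at 4 h reached the 0 h range, and the change was -0.80 (SE 0.14, adjusted p = 0.00017). The forkhead gene lin-31 changed by -0.76 and the homeobox gene cog-1 by -0.58, the latter losing its call with the authors' scaling. The growth factor gene egl-17, a marker of vulval cells, had a change of 0.41 (SE 0.19, adjusted p = 0.094) and was not called.

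Sperm transcripts rose as a block. Of 23 major sperm protein genes, 22 were higher and all 22 by at least 2-fold, with a median of 1.83. These genes are near-identical in sequence and 22 of their 23 probe sets may cross-hybridize, so they measure the family and not single members. Their summed signal was 27523 to 101386 at 0 h (median 53084) and 127480 to 343673 at 4 h (median 222569). The lowest 4 h array exceeded the highest 0 h array. For msp-33 the 3 acrylamide signals were 783, 799 and 3438 at 0 h and 4427, 4652 and 17890 at 4 h. In the cadmium series they were 1532, 1741 and 3907, then 8351, 10340 and 12110, and in the mercury series 1311, 2519 and 3433, then 8094, 8523 and 8905. Its change was 2.17 (SE 0.30, adjusted p = 2.4e-05), and in the acrylamide series 1 array at each time was several times brighter than the others.

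Sperm genes outside that family rose too. Of 31 tested, 28 were higher, 19 of them by at least 2-fold, and 0 were lower (median 1.21). The signal of spe-11, a protein that sperm deliver to the embryo, was 7.28 to 568 at 0 h (median 141) and 860 to 2334 at 4 h (median 1140). The 3 dimmest 0 h arrays, 2 from the acrylamide series and 1 from the cadmium series, had signals of 7.28 to 12.5, and no array at 4 h was near the 0 h range. The change was 3.00 (SE 0.35, adjusted p = 6.1e-06), or 8.02-fold. The sperm genes sss-1 and nspd-1 rose by 2.64 and 2.47, and ssp-35, of the sperm-specific ssp family, by 2.06. Among the 15 separated genes of largest increase was also gskl-2, a kinase related to glycogen synthase kinase 3 (2.74, SE 0.32). Other genes of that group with no overlap were F54F7.3 (3.10), spig-20 (3.00), F58A6.9 (2.93) and ttr-14 (2.88), while ZC373.2 (2.89) was separated within each series.

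Regulators that direct germ cells to the sperm fate included genes that fell and genes that rose. The signal of fog-3, required for sperm fate, was 1030 to 1597 at 0 h (median 1207) and 696 to 1063 at 4 h (median 828). The ranges met only at their edges. Its change was -0.56 (SE 0.11, adjusted p = 0.00071), and fog-1 changed by -0.65 (SE 0.15); both lost their call with the authors' scaling. The transcription factor spe-44, which switches on sperm genes, changed by 0.42 (SE 0.14, adjusted p = 0.021), a call lost without any 1 of the 3 series. The same held for fem-3, another gene required for sperm fate, which changed by 0.46 (SE 0.15, adjusted p = 0.023) and also lost its call without replicate 1 of the cadmium series at 0 h. Over the sex determination list, 2 of 14 genes were higher and 5 lower (median -0.27), with 2 higher and 0 lower under the authors' scaling. The trimmed mean and quantile normalization each left 3 lower. Of 26 meiosis genes, 4 were higher and 0 lower (median 0.12), with 8 higher under the authors' scaling. This share of increases and that of the next list lie near the 14% of all genes. The meiosis increases were led by lab-1, which protects cohesion between paired chromosomes (1.57, SE 0.20), with syp-1 of the synaptonemal complex at 0.70. Of 41 genes for DNA replication and the cell cycle, 5 were higher and 2 lower (median -0.05), among them the cyclin B genes cyb-2.2 (1.02) and cyb-2.1 (0.62), whose probe sets may cross-hybridize.

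Genes of oocytes had smaller median changes. Of 17 regulators that bind RNA in oocytes, 10 were higher, 0 by 2-fold, and 0 were lower (median 0.38). The signal of oma-1, needed for oocyte maturation, was 61.8 to 394 at 0 h (median 247) and 281 to 756 at 4 h (median 507). The change was 0.99 (SE 0.19, adjusted p = 0.00039), and the ranges overlapped over all arrays but not within a series. The Pumilio family genes puf-5 and puf-3 rose by 0.88 and 0.85, mex-5 by 0.75 and gld-1, an RNA-binding regulator of the germ line, by 0.38. Of 16 genes for the eggshell and egg surface, 9 were higher and 2 lower, 5 of the 9 by at least 2-fold (median 0.63). The signal of perm-2, part of the permeability barrier of the egg, was 92.5 to 252 at 0 h (median 198) and 414 to 1791 at 4 h (median 898). The times did not overlap, and the change was 1.92 (SE 0.21, adjusted p = 3.8e-06). The chondroitin proteoglycan genes cpg-3 and cpg-2 rose by 1.23 and 1.10, and rme-2, the yolk receptor of oocytes, by 1.08 (SE 0.19).

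Yolk protein genes were all higher, from low levels. All 5 vitellogenins tested were called, 3 of them at least 2-fold, with a median of 1.27. Of the 5, 0 exceeded the dim limit on all 18 arrays, and their summed signal at 0 h had a median of 450. The size of these changes is therefore uncertain. The signal of vit-6 was 81.9 to 660 at 0 h (median 174) and 290 to 4062 at 4 h (median 1541). The acrylamide arrays held both ends at 4 h, with 290, 438 and 4062, and the highest 0 h values came from the mercury series. The change was 2.33 (SE 0.34, adjusted p = 3.5e-05), and vit-2 changed by 2.08 (SE 0.36). The probe sets of vit-5 (1.27) and vit-4 (0.93) may cross-hybridize, and the call for vit-4 was lost without the cadmium or the mercury series.

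Apart from col-41 above, the genes of largest decrease among those separated in each series belonged to many families. With every 4 h array below every 0 h array, abf-5, an antibacterial factor, went from 549 to 1661 (median 1177) to 178 to 448 (median 310). Its change was -1.60 (SE 0.21, adjusted p = 1.2e-05). Likewise separated were del-6, a sodium channel subunit (-1.59), dhs-25, a short-chain dehydrogenase (-1.57), btbz-2 (-1.50), F13C5.5 (-1.44), ugt-57, a glucuronosyltransferase (-1.27), far-7, which binds fatty acids (-1.25), and sshk-1 (-1.25). Separation within each series only was seen for dpy-6, a mucin-like cuticle protein (-1.67), R03H10.2 (-1.49), aqp-8, an aquaporin (-1.43), sup-46 (-1.35), srap-1 (-1.29) and M05D6.5 (-1.27). Each of these genes stayed called with the authors' scaling.

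Marker transcripts of the intestine, muscles and nervous system were lower or not called, and the number of calls depended on the scaling. Of 71 neuropeptide genes, 43 were lower and 2 higher (median -0.41), against 1 lower and 3 higher with the authors' scaling, 30 and 3 with the trimmed mean and 39 and 2 after quantile normalization. Of 17 neuron markers 10 were lower, among them rab-3, a synaptic vesicle GTPase (-0.60, SE 0.10), against 0 with the authors' scaling, 6 with the trimmed mean and 9 after quantile normalization. Of 15 intestine markers 5 were lower, against 0, 2 and 4 under those scalings in the same order. Of 9 pharyngeal muscle markers 5 were lower, against 0, 4 and 5. Of 11 markers of hypodermis and seam 7 were lower, against 3, 5 and 6. Of 10 body wall muscle markers 1 was lower, against 0 under each. The muscle myosin gene unc-54 changed by -0.31 (SE 0.19, adjusted p = 0.20). Of 61 ribosomal protein genes 2 were lower, and of 33 proteasome genes 2, with medians of -0.19 and -0.17. Both of those medians were above 0 with the authors' scaling, at 0.07 and 0.08. The summed signal of neuron markers was 11405 to 18128 at 0 h and 9967 to 13077 at 4 h, and that of intestine markers 56496 to 158708 and 62064 to 100724. The part of these tissues in the other changes was not tested.

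Metabolic and protective enzymes were lower in part. Of 20 genes for making, desaturating and elongating fatty acids, 11 were lower and 1 higher (median -0.49), against 2 lower and 2 higher with the authors' scaling. The trimmed mean left 10 lower and quantile normalization 9. The elongase elo-2 went from 4225 to 13060 (median 8564) to 3269 to 5509 (median 4329), a change of -1.01 (SE 0.19), and pod-2, acetyl-CoA carboxylase, changed by -0.99. Of 34 glutathione S-transferases, which conjugate electrophiles, 20 were lower and 0 higher (median -0.40), against 5 lower and 1 higher with the authors' scaling. The trimmed mean and quantile normalization each left 16 lower. Largest were gst-19 (-1.18) and gst-20 (-1.13). In the hydrogen sulfide and hypoxia list, 5 of 10 were lower and 3 stayed so with the authors' scaling. There cysl-2, a cysteine synthase homologue induced by hypoxia signalling, went from 1030 to 3768 (median 1871) to 364 to 1097 (median 500), a change of -1.50 (SE 0.23). The regulator rhy-1 fell by 0.94 without overlap.

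Genes used to read toxic stress had small changes in both directions between these unexposed groups. The signal of mtl-1, a metallothionein, was 735 to 2508 at 0 h (median 1848) and 1927 to 4148 at 4 h (median 2585). The ranges overlapped, and the change was 0.63 (SE 0.18, adjusted p = 0.0096), a call lost without the cadmium or the mercury series. The chaperone gene hsp-4 of the endoplasmic reticulum rose by 0.44 (SE 0.12, adjusted p = 0.0083), a call lost in the same way. The small heat shock gene hsp-16.2 changed by -0.44 (SE 0.34, adjusted p = 0.31), hsp-70 by -0.16 (SE 0.23, adjusted p = 0.60) and the ferritin gene ftn-1 by -0.16 (SE 0.21, adjusted p = 0.55). Without replicate 3 of the acrylamide series at 4 h, which had a signal of 1230, ftn-1 was called lower by limma (-0.37, adjusted p = 0.0204). Without replicate 2 of the cadmium series at 0 h, hsp-16.2 changed by -0.15 and hsp-70 by 0.04, neither of them called. Of 18 genes for metal handling, 7 were lower and 1 higher, against 0 lower and 2 higher with the authors' scaling. The trimmed mean left 6 lower and quantile normalization 7. The lower genes after centring included the heme transporter gene hrg-4 (-0.63) and the zinc transporter genes cdf-1 (-0.58) and ttm-1 (-0.57). Of 18 antioxidant enzyme genes 6 were lower and 0 higher, against 0 lower with the authors' scaling, 3 with the trimmed mean and 6 after quantile normalization. Of 14 cytosolic heat shock genes 4 were lower and 0 higher, a share near the 25% of all genes called lower. With the authors' scaling 0 were lower, with the trimmed mean 2, and after quantile normalization 3 were lower and 1 higher.

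What followed between 4 h and 8 h differed by group. The 2 steps share the 4 h arrays, so only the values are set side by side; from 4 h to 8 h, 11.3% of genes were called higher and 19.3% lower. Of the 642 genes 2-fold higher at 4 h, 297 were higher again at 8 h, 49 were lower and 296 were not called (median 0.48). The vitellogenins had a median of 2.83 in the later step, eggshell genes 1.12 with 14 of 16 higher, and oocyte regulators 0.98 with 16 of 17 higher. The sperm protein median was 0.53, with 11 of 23 higher and 0 lower. Lists of cuticle genes that had mostly risen had more decreases than increases in the later step. The 103 col genes had a median of -0.26, with 19 higher and 38 lower. The 6 L4 and adult cuticle collagens had a median of -1.25, with 1 higher and 5 lower. The 22 astacin proteases had a median of -0.27, with 2 higher and 9 lower. Furrow collagens had a median of -2.47 with 5 of 5 lower, moulting genes -1.22 with 27 of 33 lower, and lipocalin-related genes -2.22 with 6 of 7 lower. Other named collagens, not called in the first 4 h, had a median of -1.91 with 10 of 12 lower, including bli-1 at -2.81. Single genes that turned were bed-3, at 0.81 and then -1.48, del-6, at -1.59 and then 1.58, and grd-3, at -1.79 and then 1.57.

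The test of series by time called 0 of 15469 probe sets (0%) in limma, with 157 at an unadjusted p under 0.05. Counts within a single series, from 3 arrays per time, were smaller: 694 probe sets higher (4.49%) and 479 lower (3.1%) in acrylamide, 589 (3.81%) and 258 (1.67%) in cadmium, and 393 (2.54%) and 121 (0.782%) in mercury. In each series leaving out some single arrays brought its count to 0, so nothing here rests on those counts. Median changes of the major sperm proteins and of the furrow collagens are shown by series in the plot of gene lists.

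The 0 h arrays differed among themselves in the genes of large change. For each of the 642 genes the deviation from the 0 h mean was taken, and its median over genes was computed per array. At 0 h it was 0.79 in replicate 2 of the cadmium series, 0.55 in replicate 1 of the acrylamide series and 0.44 in replicate 2 of the mercury series. It was lowest in replicates 3 and 2 of the acrylamide series, at -0.64 and -0.58. Replicate 2 of the cadmium series held the highest 0 h level for 406 of the 642 genes, and for the 118 lower genes it held the lowest 0 h level in 68. At 4 h the medians ran from 0.90, in replicate 3 of the acrylamide series, to 2.00, in replicate 1 of the same series. The lowest 4 h array was thus only slightly above the highest 0 h array on this measure, and the acrylamide series held both extremes at 4 h. These values describe arrays by genes chosen on the same arrays and carry no test.

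**Figure D4:**
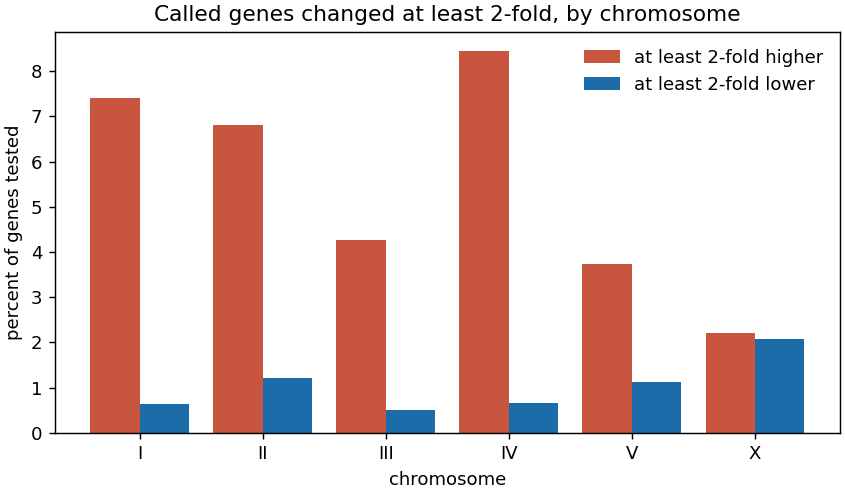
Percent of genes tested on each chromosome that were called and changed at least 2-fold between 0 h and 4 h, higher in red and lower in blue. Chromosome IV has the highest share of increases (8.44%) and X the lowest (2.2%), while X has the highest share of decreases (2.08%).

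The share of genes that rose differed between chromosomes. On chromosomes IV, I and II, 8.44%, 7.4% and 6.81% of genes tested were at least 2-fold higher, against 4.27% on III, 3.74% on V and 2.2% on X. For 2-fold decreases X had the highest share, 2.08%, against 0.63% on I. Of 1633 genes tested on X, 124 were called higher (7.59%) and 592 lower (36.3%), against 14% and 25% of all genes. The median change on X was -0.255, against medians of -0.165 to -0.0802 on the autosomes. Values by chromosome were computed after centring only, and the number of genes called lower depended strongly on the scaling. The X chromosome is known to be poor in genes for sperm and to be largely silent in the male-type germ line. Whether this bears on the shares was not tested. Of the named increases, col-19, vit-2, ttr-14, spig-20 and F54F7.3 are X-linked, as are the decreases of dpy-7, dpy-8 and sym-1. These examples were chosen after their values were seen. Neighbouring genes and gene families share positions, so the shares are a description without a test.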

How the data were processed

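RNA from whole unexposed worms was read on 1 array per sample. The deposited values are intensity, MAS5 signal on a linear scale, per the submitters' processing notes, and per the deposited table each array had been scaled to a shared trimmed mean with 1 exception. The version of MAS5 and the scaling target are not given in the sources used here. After removal of 77 array controls from the 22625 probe sets, 15469 exceeded 132.3, the 40th percentile of all signals, on at least 3 of the 18 arrays. Signals were centred on a common median of 202.9, and 51.8, the 20th percentile, was added before log2. The log2 values were fitted with limma (version 3.58.1, R 4.3.3) with time and series as factors and a variance trend, without a replicate block, with Benjamini-Hochberg adjustment over all probe sets tested. Tested on simulated data, the fit called most of the 2-fold changes put in and fewer of the smaller ones. A gene was read by its probe set of highest mean signal, taking sets that may cross-hybridize only for the 3500 of 17118 genes without another. Quantities per array were compared by exact two-sided permutation of times within series (8000 arrangements, smallest p 0.00025). The precision is limited by the 9 arrays per time.

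The 59 gene lists and the comparison were chosen with earlier results of these data known, and list counts and medians are descriptions. Named genes were the 15 higher and 15 lower of largest change without overlap in any series, up to 4 called members per list of largest change, 31 genes always named, and the 6 with the smallest p for series by time. Alternatives were 3 scalings, pseudocount, filter, variance trend, array weights, fits with 27 or 80 arrays, a replicate block, and leaving out each array or series.

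Same-numbered samples at 0 h and 4 h deviated together with correlations from -0.0943 to 0.37, over 0.1 in all but 1 of the 9, and the labels do not say that a number marks a shared culture, so samples were not treated as paired.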

Additional observations from a re-analysis of the deposited data

Results flagged for a closer look

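In 128 groups of 9 arrays, 6 had 1 array whose gap to its neighbour took a larger share of the group's range than Dixon's critical value, which chance passes in about 5% of groups. Replicate 1 of the acrylamide series at 0 h stood apart in the trimmed mean (0.988 of the range) and the median signal (0.609) before centring. The signal of mtl-1 at 0 h was 735 on replicate 3 of the acrylamide series and 1577 or more on the others (0.617). The signal of hsp-70 at 0 h was 486 on 1 array of the cadmium series and 49.9 to 159 on the others (0.561). At 0 h the clock gene lin-42 reached 1195 on 1 cadmium array, with the next at 885 (0.562). At 4 h ftn-1 reached 1230 on 1 acrylamide array, with the next at 340 (0.761). No cause was tested for any of these.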

How the results depend on the processing

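Against the main 5831 probe sets called, the counts were 2894 with the authors' scaling, 3433 without the cadmium series and 3043 without the mercury series. Leaving out 1 array gave 4943 to 6305. The 3810 called lower became 404 with the authors' scaling, 2306 with the common trimmed mean (chosen after seeing the data), and 2206, 2044 and 1639 without the acrylamide, cadmium and mercury series. The 147 called and at least 2-fold lower (a count also added after seeing the data) became 42, 75 and 95 with the authors' scaling, the trimmed mean and quantile normalization, and 235 with a pseudocount of 12.95. The counts of probe sets called higher (1809 to 2089 without 1 array) and of 2-fold increases (713 to 871) stayed within 1.5 times of 2021 and 795 under every alternative run. The test of series by time called 0 under every alternative run for it; it was not run with a series left out.

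With a replicate block 6301 probe sets were called, 2168 higher and 4133 lower; not every sample correlated best with its own number. Counts within 1 series rested on few arrays. The acrylamide series had 1173, with 1931 under the authors' scaling, 1776 with the block, 1858 and 2033 with 27 and 80 arrays, 501 with array weights, and 0 (without its 0 h replicate 3) to 2451 (without its 0 h replicate 1) on leaving out 1 array. The cadmium series had 847, with 1531 under the block, 1405 and 1676 with 27 and 80 arrays, 2313 with weights, and 0 to 1895 without 1 array. The mercury series had 514, with 792 under the authors' scaling, 288 with the pseudocount of 12.95, 248 without a filter, 1234 with the block, 1050 and 1243 with 27 and 80 arrays, 2939 with weights, and 0 to 951 without 1 array.

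Of 238 named genes called, 83 lost the call with the authors' scaling, all of them lower genes, 18 with the trimmed mean and 9 after quantile normalization; the block ended 2. List medians turned above 0 with the authors' scaling for transthyretin-like genes (0.0258), proteasome subunits (0.0848), ribosomal proteins (0.071), glucuronosyltransferases (0.0468), cytochromes P450 (0.0127), fatty acid oxidation (0.0877), nuclear hormone receptors (0.048) and body wall muscle (0.0705), and for the proteasome also after quantile normalization (0.0213). On these arrays the authors' scaling and the common trimmed mean differ almost only in replicate 1 of the acrylamide series at 0 h. Before centring its trimmed mean was 213.2, against 493.8 to 497.4 on the others. The causes of the differences from centring and from quantile normalization were not tested. Signals under the dim limit of 132.3 were kept where a gene passed the filter on other arrays, and their size is uncertain; the whole-worm samples limit what can be said of single tissues.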

Other observations

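Symbol families with at least 5 genes tested were ranked by their share of 2-fold higher genes, after the values were seen. Apart from families described above, all 5 nspd genes, 6 of 8 ssp genes, 3 of 5 nsph genes, 4 of 7 msrp genes and 3 of 6 gln genes, which encode glutamine synthetases, were at least 2-fold higher. The probe sets of 4 of the 5 nspd genes are marked as cross-hybridizing. Among families with decreases, 2 of 6 pugs genes and 2 of 8 cdh genes, which encode cadherins, were at least 2-fold lower. Of the cdh genes 1 was at least 2-fold higher.

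Some families had members that fell and members that rose. The shares of transthyretin-like, fatty acid oxidation and histone genes called lower lay near the 25% of all genes. Of 35 transthyretin-like genes 5 were higher and 8 lower, against 7 and 3 with the authors' scaling, from ttr-14 at 2.88 and ttr-9 at 1.81 to ttr-31 at -1.25 and ttr-18 at -1.30. Of 95 C-type lectins 10 were higher and 31 lower, against 11 and 5 with the authors' scaling, and clec-79 (1.79), clec-123 (1.52) and clec-151 (1.49) led the increases. Of 14 insulin-like peptides 10 were lower, against 2 with the authors' scaling, led by ins-35 (-1.27), while ins-37, with every 0 h signal under the dim limit, was higher (1.68). Of 50 genes for fatty acid oxidation 9 were higher, 6 of them by at least 2-fold, including acs-18 (1.49) and acdh-5 (1.26), and 15 were lower, led by ech-7 (-1.11). Of 11 epidermal antimicrobial peptides 3 were higher and 4 lower (median -0.38), against 3 and 1 with the authors' scaling, and 7 of the 11 probe sets may cross-hybridize. Of these cnc-4 (1.17) and nlp-25 (1.10) were at least 2-fold higher, and nlp-31 had the largest decrease (-0.94). Of 41 respiratory chain genes 16 were lower, against 1 with the authors' scaling, and 1 was higher, cyc-2.2, a cytochrome c gene (1.52, SE 0.27). Of 32 histone genes 8 were lower, against 1 with the authors' scaling, and 1 was higher, his-70 of the H3 family (0.96), which did not overlap between times. At 0 h only 1 cadmium array each exceeded the dim limit for clec-151 (190) and acdh-5 (184). Both genes therefore passed the filter only through their 4 h arrays. Each of the increases named in this paragraph stayed called under every scaling, though the other scalings had higher median changes than centring and could hardly remove them. Lower counts with the trimmed mean and quantile normalization were 19 and 25 for C-type lectins and 8 and 10 for insulin-like peptides. They were 12 and 22 for respiratory chain genes, 7 and 9 for transthyretin-like genes and 4 and 5 for histones.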
